A study of Rattus norvegicus with 10 samples.

Results

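Cohesin subunits were followed through 10 microarrays of rat testis, comparing those of the meiotic complex with those of the complex of dividing somatic cells. The set comprised 9 genes of the 18166 named genes measured. They were 4 meiotic subunits (Smc1b, Rec8, Rad21l1 and Stag3) and 5 mitotic subunits (Smc1a, Smc3, Rad21, Stag1 and Stag2), and each was measured by 1 probe set that carried its symbol alone. The testes fell into 3 groups: under-developed from obese rats (4 arrays), normal from obese rats (4 arrays) and normal from lean rats (2 arrays). All animals were Zucker rats aged 14 weeks and labelled as the fa/fa model, in which the leptin receptor is mutated. The lean rats carry the same fa/fa label and the same treatment text as the obese ones, so their genotype could not be settled. The titles call the arrays biological replicates, but nothing in the labels gives the number of animals or how under-development was scored. The p-values therefore cover the spread between these samples only.

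Cohesin is a ring of an SMC1 and an SMC3 protein closed by a kleisin subunit, to which a STAG protein binds, and it holds sister chromatids together from their replication until they part. In dividing somatic cells the ring is built from SMC1A, SMC3, the kleisin RAD21 and either STAG1 or STAG2. Meiotic cells make germ-line versions of most parts, namely SMC1B, the kleisins REC8 and RAD21L1, and STAG3, while SMC3 serves both kinds of ring. Meiotic cohesin forms the chromosome axes on which the synaptonemal complex assembles, and male mice that lack STAG3, REC8, RAD21L1 or SMC1B are infertile. In spermatogenesis the genes of the meiotic subunits are best known from spermatocytes, whereas the mitotic subunits are found in somatic cells and spermatogonia too.

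The under-developed group was not uniform. Over all genes, which are not independent replicates, its replicates 1, 2, 3 and 4 correlated with the 6 normal arrays at a mean r of 0.856, 0.946, 0.731 and 0.995, and the lowest r between any pair of normal arrays was 0.994. Results are therefore given with all arrays and without under-developed replicate 4, which was singled out with its values known. Expression is given as deposited, in log2 units, so that a difference of 1 is a 2-fold change. The small number of arrays, above all of lean rats, limits the precision.

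All 4 meiotic subunits were low in under-developed replicates 1, 2 and 3 and near the normal level in replicate 4. In the 3 low arrays each meiotic gene lay below all 6 normal arrays, where 37.8%, 38.3% and 32.0% of all genes did so in replicates 1, 2 and 3. Smc1b, Rec8 and Stag3 were lowest in replicate 3 and least reduced in replicate 2. Without replicate 4, Smc1b, Rec8, Rad21l1 and Stag3 fell by 2.06, 2.27, 0.88 and 2.55 log2. A bulk array cannot tell fewer cells of a type from less RNA per cell.

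Stag3, the meiotic STAG protein, read 8.99, 10.46, 7.12 and 11.52 log2 in under-developed replicates 1 to 4, against 11.40, 11.36, 11.34 and 11.52 in normal obese testes and 11.40 and 11.44 in normal lean testes. Replicate 3 was 19.5-fold, replicate 1 5.35-fold and replicate 2 1.92-fold lower than the normal obese mean. The groups overlapped only through replicate 4, which lay among the normal testes.

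Smc1b, the meiotic partner of SMC3, read 10.20, 11.32, 7.37 and 11.66 log2 in the under-developed testes, against 11.59, 11.74, 11.76 and 11.65 in normal obese and 11.69 and 11.78 in normal lean testes. It was 19.9-fold lower in replicate 3, 2.80-fold in replicate 1 and 1.29-fold in replicate 2. Replicate 2 nevertheless lay below every normal array.

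Rec8, the kleisin that holds sister chromatids until the second meiotic division, read 8.03, 8.59, 6.13 and 9.77 log2 in the under-developed testes, against 9.83, 9.82, 9.80 and 9.94 in normal obese and 9.82 and 9.89 in normal lean testes. All 4 under-developed arrays were below all normal arrays, although replicate 4 lay only 0.08 log2 below the normal obese mean. In the under-developed against normal obese comparison Rec8 and Smc3 were the only subunits whose groups did not overlap, both lower, where 10.4% of all genes lay lower and 7.44% higher without overlap. In replicate 2, the least affected of the low arrays, Rec8 was still 2.40-fold lower, and 2.62% of genes differed more downward.

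Rad21l1, the other meiotic kleisin, read 5.85, 6.53, 5.98 and 7.10 log2 in the under-developed testes, against 7.12, 6.92, 7.03 and 6.95 in normal obese and 7.16 and 6.74 in normal lean testes. Its range of differences was narrow, at 2.22-fold lower in replicate 1, 1.39-fold in replicate 2 and 2.04-fold in replicate 3. Unlike the other meiotic subunits it was not lowest in replicate 3. Its readings in replicates 1 and 3 lay below every array median (6.14 to 6.38), and whether a floor narrowed the range was not tested. Its mean over all arrays exceeded that of 45.4% of genes, whereas those of Smc1b, Stag3 and Rec8 exceeded 96.9%, 94.7% and 81.5%.

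**Figure D1:**
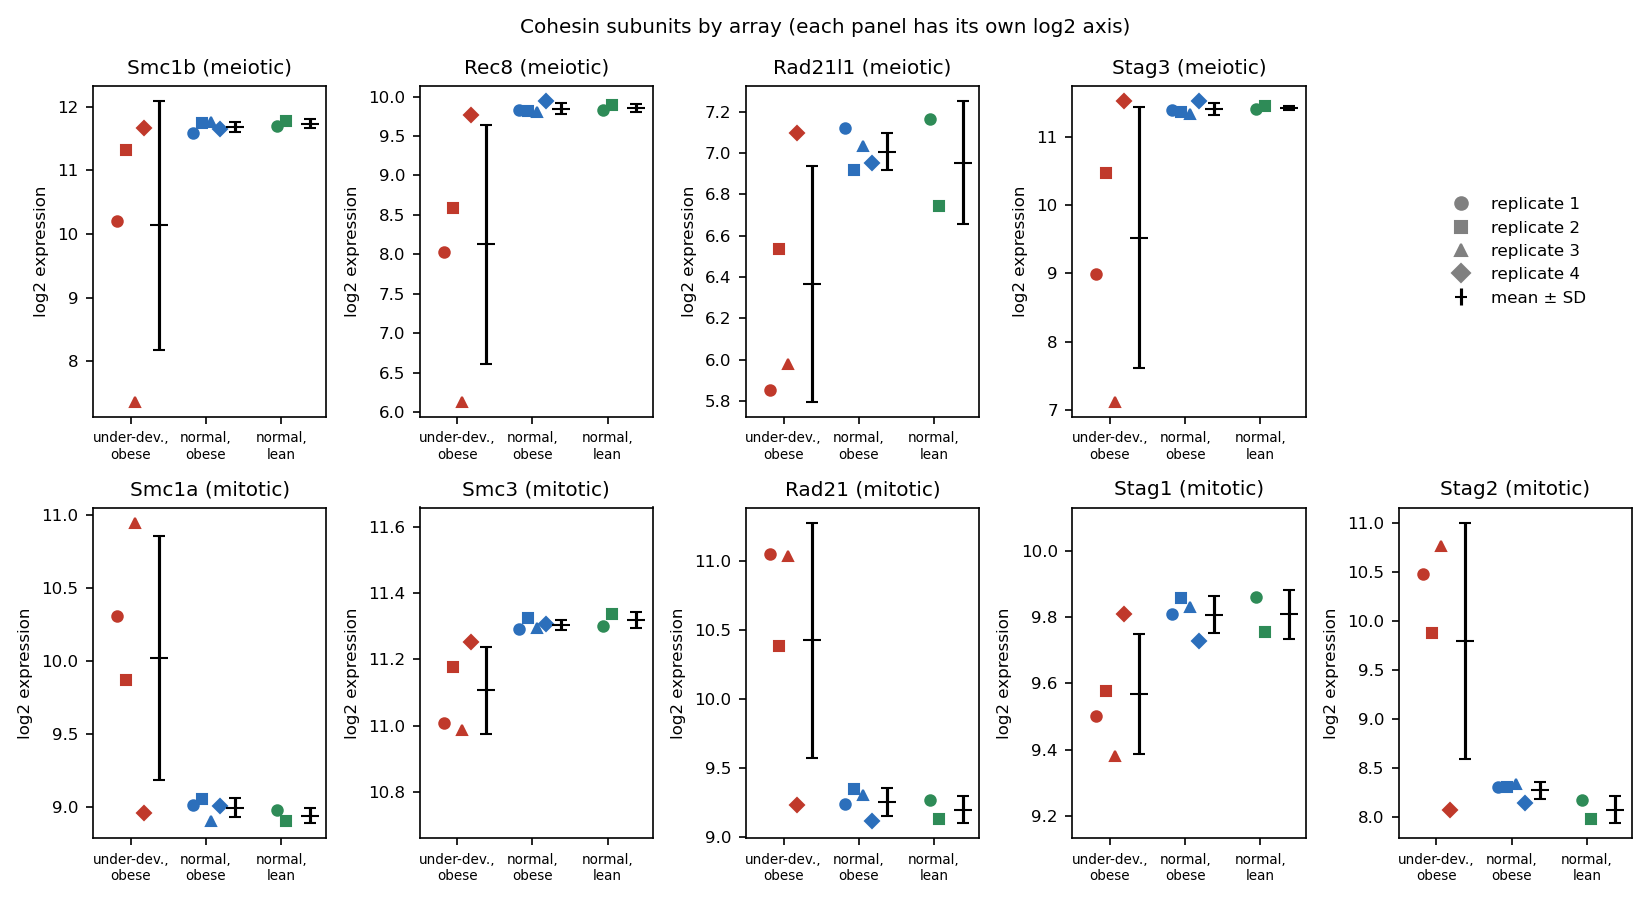
Log2 expression (vertical axes, 1 scale per panel) of the 4 meiotic and 5 mitotic cohesin subunits in each array, by group. Points are arrays, symbols give the replicate number and black bars are the mean ± SD. In Smc1b, Rec8 and Stag3 under-developed replicate 3 lies lowest, in Smc1a, Rad21 and Stag2 replicates 1 to 3 lie above all normal arrays, and Smc3 and Stag1 differ least.

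Because the meiotic genes were low in the same arrays, their promoters are shown beside that of Smc1a, the mitotic counterpart of Smc1b, which differed in the other direction. The sequences are the 250 bases before the transcript start used in the promoter table, from RefSeq on GRCr8, in the direction of transcription. They lie at chr7:118122649-118122898 (minus strand) for Smc1b, chr15:33079568-33079817 (plus strand) for Rec8, chr3:160648717-160648966 (minus strand) for Rad21l1, chr12:22398158-22398407 (plus strand) for Stag3 and chrX:24582482-24582731 (plus strand) for Smc1a. In Smc1b and Stag3 that start lies inside the annotated span of the gene, so the last part of these sequences, with the TCCCGC match of Smc1b, is within the gene. Capitals mark matches to the motifs described after the sequences.
Smc1b promoter: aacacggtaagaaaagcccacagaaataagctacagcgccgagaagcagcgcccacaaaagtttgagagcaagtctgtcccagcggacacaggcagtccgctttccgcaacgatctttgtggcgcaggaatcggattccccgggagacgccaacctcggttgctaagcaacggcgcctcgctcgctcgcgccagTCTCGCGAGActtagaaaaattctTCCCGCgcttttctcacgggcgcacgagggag
Rec8 promoter: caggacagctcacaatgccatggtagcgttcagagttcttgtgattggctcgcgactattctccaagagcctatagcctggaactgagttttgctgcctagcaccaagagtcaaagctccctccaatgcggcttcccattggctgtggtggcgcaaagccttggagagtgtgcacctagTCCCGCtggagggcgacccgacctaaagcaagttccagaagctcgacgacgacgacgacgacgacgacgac
Rad21l1 promoter: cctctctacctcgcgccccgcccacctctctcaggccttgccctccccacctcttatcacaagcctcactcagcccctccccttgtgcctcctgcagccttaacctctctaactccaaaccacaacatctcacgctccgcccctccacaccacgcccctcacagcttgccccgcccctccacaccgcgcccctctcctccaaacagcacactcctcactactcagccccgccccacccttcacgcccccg
Stag3 promoter: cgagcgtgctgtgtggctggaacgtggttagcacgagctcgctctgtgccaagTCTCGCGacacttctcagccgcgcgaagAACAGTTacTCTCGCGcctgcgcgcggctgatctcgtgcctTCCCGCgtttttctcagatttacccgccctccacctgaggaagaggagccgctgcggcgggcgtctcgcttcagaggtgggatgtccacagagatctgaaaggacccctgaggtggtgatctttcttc
Smc1a promoter: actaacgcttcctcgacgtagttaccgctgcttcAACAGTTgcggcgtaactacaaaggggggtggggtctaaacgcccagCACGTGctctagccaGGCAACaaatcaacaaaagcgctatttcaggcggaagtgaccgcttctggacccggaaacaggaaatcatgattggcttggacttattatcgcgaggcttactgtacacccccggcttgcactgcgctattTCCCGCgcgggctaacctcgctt

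The string TCCCGC (reverse complement GCGGGA), the core bound by E2F proteins, among them E2F6, which in the mouse represses germ-line genes such as Smc1b and Stag3, stood in the promoters of Smc1b, Rec8 and Stag3, and in none of the 250 bases of Rad21l1. It also stood in 3 of the 4 mitotic promoters in the table (Smc1a, Smc3 and Stag1, not Stag2), so it did not separate the meiotic from the mitotic genes. Of all 33469 promoters of that length, 16.0% held it. Counted from the start site, with -1 as the last base before it, the match began at -32 in Smc1b, -71 in Rec8, -128 in Stag3 and -23 in Smc1a. The MYB-type string AACNGTT was found in Stag3 and Smc1a (3.94% of all promoters). The E-box CACGTG (5.59%) and the RFX-type string GTTGCC (9.89%) were found in Smc1a only, and the CRE string TGACGTCA (1.59%) in none of the 8 promoters. All strings were searched on both strands without mismatches, so near matches were not counted. The string TCTCGCG, looked for after the sequences had been seen, stood in Smc1b on both strands, overlapping itself, in Stag3 at 2 places, in 0 of the 4 mitotic promoters and in 2.05% of all promoters. The GC content of the 4 meiotic promoters ran from 56.4% to 65.6% and that of the 4 mitotic promoters from 54.4% to 74.8%, against a median of 51.2% over all promoters. The stretches of Smc3 and Stag2 lie wholly, and that of Stag1 partly, inside the annotated span of the gene. The mitotic counts and GC range therefore include sequence within genes. None of these strings was tested as a binding site.

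The mitotic subunits did not move as a block. Smc1a, Rad21 and Stag2 were high in under-developed replicates 1 to 3, above all 6 normal arrays, while Smc3 and Stag1 were slightly low in the same arrays, below all 6. Genes above all normal arrays made up 40.7%, 34.2% and 49.5% of all genes in those replicates, so a position above the normals was common. In replicate 4 only Rec8 and Smc3 lay outside the normal range, both below it, as did 18.6% of all genes.

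Stag2, a STAG protein of somatic cohesin, read 10.48, 9.87, 10.77 and 8.07 log2 in the under-developed testes, against 8.30, 8.31, 8.34 and 8.14 in normal obese and 8.17 and 7.98 in normal lean testes. It was 4.62-fold, 3.04-fold and 5.63-fold higher than the normal obese mean in replicates 1, 2 and 3. These differences exceeded those of 97.1%, 97.6% and 97.4% of all genes in the same array. Replicate 4 lay below all 4 normal obese arrays and between the lean ones.

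Rad21, the mitotic kleisin, read 11.05, 10.38, 11.04 and 9.23 log2 in the under-developed testes, against 9.24, 9.35, 9.31 and 9.12 in normal obese and 9.27 and 9.13 in normal lean testes. Smc1a, the mitotic partner of SMC3, read 10.31, 9.87, 10.95 and 8.96 log2, against 9.02, 9.06, 8.90 and 9.01 in normal obese and 8.98 and 8.91 in normal lean testes. Rad21 was 3.48-fold, 2.19-fold and 3.44-fold and Smc1a 2.48-fold, 1.83-fold and 3.87-fold higher in replicates 1, 2 and 3. In both genes replicate 4 lay within the normal range. Smc1a and Stag2 are the X-linked subunits in the RefSeq annotation, and Rad21 is autosomal.

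Smc3, the subunit common to both rings, read 11.01, 11.18, 10.99 and 11.25 log2 in the under-developed testes, against 11.29, 11.33, 11.29 and 11.31 in normal obese and 11.30 and 11.34 in normal lean testes. Stag1, the other somatic STAG protein, read 9.50, 9.58, 9.38 and 9.81 log2, against 9.81, 9.86, 9.83 and 9.73 in normal obese and 9.86 and 9.76 in normal lean testes. Both differences were small. In replicates 1 to 3 Smc3 was 1.09-fold to 1.25-fold and Stag1 1.17-fold to 1.35-fold below the normal obese mean, and 24.8% to 40.5% of genes differed more downward in the same array.

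**Figure D2:**
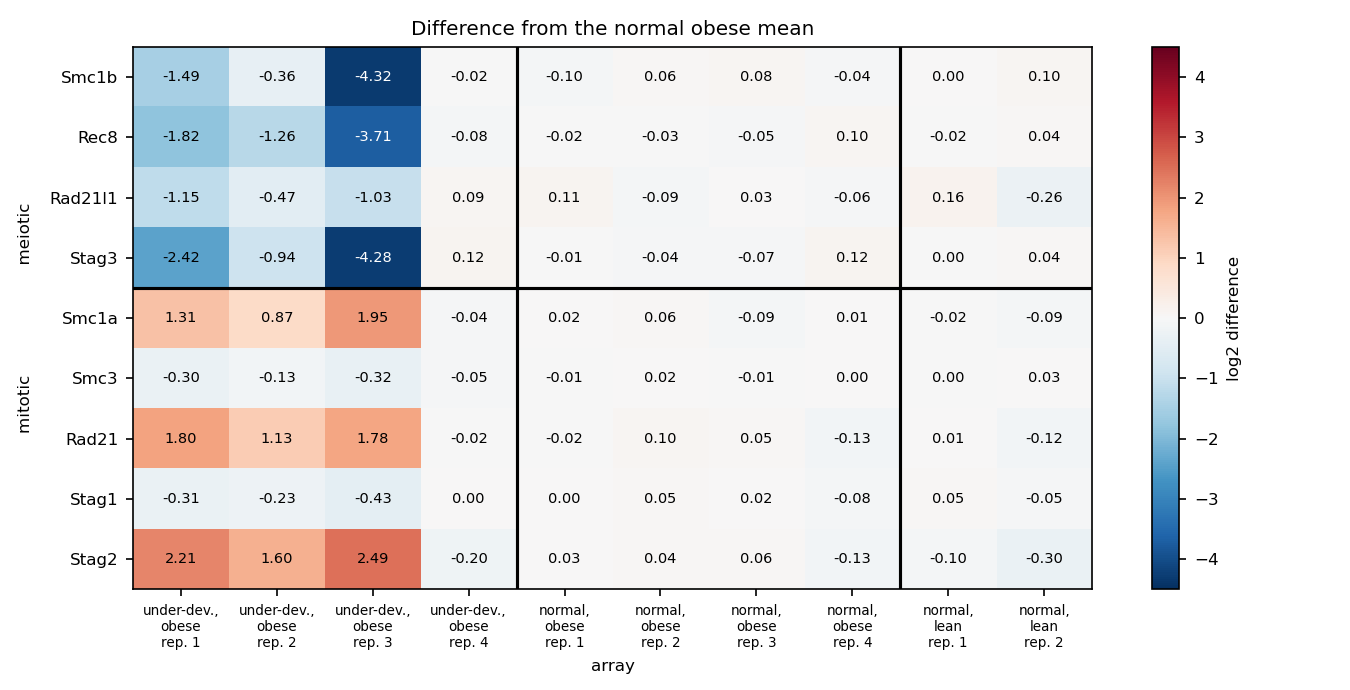
Log2 difference of each cohesin subunit (rows, meiotic above the line) from the normal obese mean in each array (columns, under-developed obese, normal obese and normal lean). The meiotic genes are negative and Smc1a, Rad21 and Stag2 positive in under-developed replicates 1 to 3, Smc3 and Stag1 lie between -0.43 and -0.13 there, and replicate 4 resembles the normal arrays.

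In the comparison of under-developed with normal testes of obese rats, limma over all arrays called 0 of 9 subunits and 0.0% of all genes at an adjusted p under 0.05. At an unadjusted p under 0.05 it had 3 of 4 meiotic genes lower (all but Smc1b) and 3 of 5 mitotic genes higher (all but Smc3 and Stag1), where 46.6% of all genes passed, 22.3% lower and 24.4% higher. The fitted differences were -1.55 ± 0.80 log2 (SE) for Smc1b with a limma adjusted p = 0.155, -1.72 ± 0.62 for Rec8 with 0.073, -0.64 ± 0.26 for Rad21l1 with 0.0872 and -1.88 ± 0.78 for Stag3 with 0.0935. They were 1.02 ± 0.35 for Smc1a, 1.17 ± 0.36 for Rad21 and 1.53 ± 0.50 for Stag2, each with a limma adjusted p between 0.0702 and 0.0704. Smc3 differed by -0.20 ± 0.09 and Stag1 by -0.24 ± 0.11, and their limma adjusted p values were 0.129 and 0.119. Leaving out under-developed replicate 3 instead moved the differences of Smc1b, Rec8 and Stag3 to -0.62, -1.05 and -1.08 log2.

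Without under-developed replicate 4, limma called all 9 subunits and 56.0% of all genes. The 4 meiotic genes fell, as did 26.4% of all genes, with limma adjusted p from 0.00282 for Rad21l1 to 0.0439 for Smc1b. Smc1a rose by 1.38 ± 0.22 log2 (SE), Rad21 by 1.57 ± 0.17 and Stag2 by 2.10 ± 0.19, where 29.6% of all genes rose, with limma adjusted p of 0.00083, 0.000153 and 9.05e-05. Smc3 fell by 0.25 and Stag1 by 0.32 log2, with limma adjusted p of 0.0398 and 0.0159. Without that array and with quantile normalization applied again, Smc3 differed by 0.13 log2, in the opposite direction, and the calls of Smc1b and Stag1 were lost (limma adjusted p = 0.0855 and 0.197). With arrays centred on Sertoli genes the call of Smc1a was lost (0.22 log2, limma adjusted p = 0.21). With all arrays, centring on ribosomal protein or Sertoli genes put the median of the mitotic genes at 0.51 and 0.15 log2 and that of the meiotic genes at -2.14 and -2.51, where the median of all genes stood at -0.45 and -0.81.

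**Figure D3:**
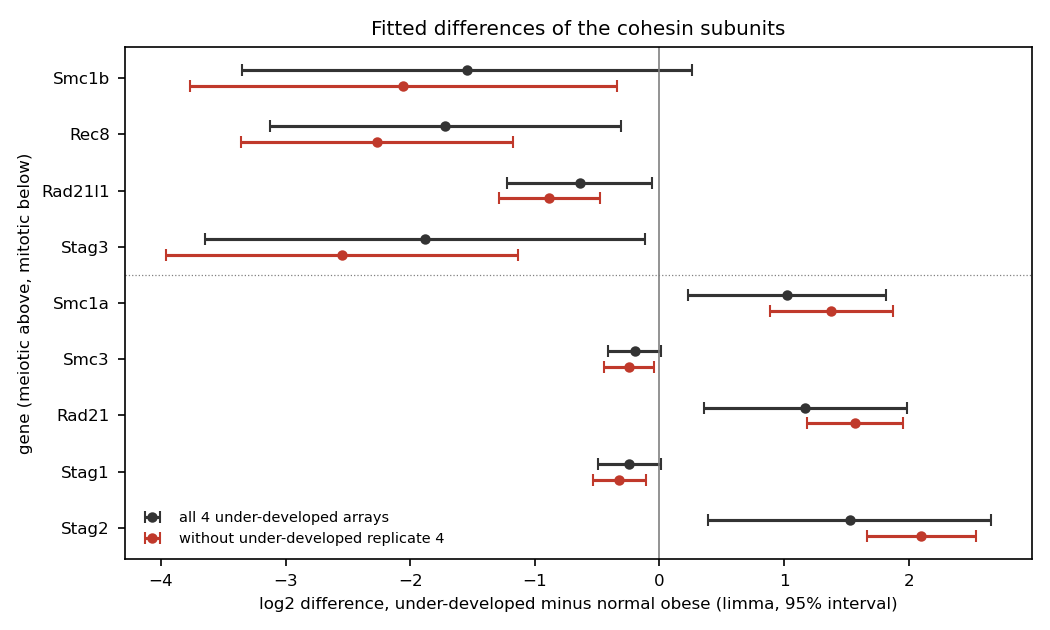
Fitted log2 differences (horizontal axis, under-developed minus normal obese) with 95% limma intervals for each cohesin subunit, with all 4 under-developed arrays and without replicate 4. Without replicate 4 no interval reaches 0, and the interval of Smc1b stays the widest, from -3.77 to -0.34.

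The contrast between the meiotic and mitotic subunits does not depend on how arrays are centred, because it is taken within an array. The mean difference of the 4 meiotic genes minus that of the 5 mitotic genes was -2.66, -1.41, -4.43 and 0.09 log2 in under-developed replicates 1 to 4, against -0.01, -0.08, -0.01 and 0.10 in normal obese and 0.04 and 0.08 in normal lean testes. It averaged -2.10 log2 in the under-developed against the normal obese testes, with an SD of 1.92 over the under-developed arrays and 0.07 over the normal obese ones (n = 4 each), and -1.33 log2 without under-developed replicate 3. This score over the members is a description and was not tested. The median difference of single genes, over all genes, lay between -0.02 and 0.17 log2 in the 4 under-developed arrays. It is not a like measure for a contrast between small sets of genes.

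Matched parts of the ring gave the same sign in each of the 3 low arrays. Smc1b relative to Smc1a was at -2.80, -1.23, -6.27 and 0.02 log2 across under-developed replicates 1 to 4, measured from the normal obese mean. For the kleisins, Rec8 relative to Rad21 was at -3.62, -2.39, -5.50 and -0.06 log2, and Rad21l1 relative to Rad21 at -2.95, -1.60, -2.81 and 0.11. Among the STAG genes the gap depended on the somatic partner. Stag3 was at -4.63, -2.54, -6.78 and 0.32 log2 relative to Stag2, and at -2.11, -0.71, -3.86 and 0.11 relative to Stag1.

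The same ratios also separated mitotic subunits from each other. Stag2 relative to Stag1 was at 2.52, 1.83, 2.92 and -0.21 log2 across under-developed replicates 1 to 4, while the normal arrays lay between -0.24 and 0.04. Smc1a relative to Smc3 was at 1.61, 1.00, 2.27 and 0.01 log2. These values show unequal differences within an array, and the direction of Smc3 itself depended on the scaling.

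Genes listed as loading, locking, protecting or opening the cohesin ring differed in both directions in the arrays that stood apart, more of them lower than higher. Of 18 listed regulators, 13 were measured, with a median difference of -0.32 log2 against 0.06 over all genes in the under-developed against normal obese comparison. With quantile normalization applied again that median of the regulators was -0.13 log2. With all arrays 0 of them passed limma after adjustment (7 lower and 3 higher at an unadjusted p under 0.05, where 22.3% of all genes were lower and 24.4% higher). Without replicate 4, 7 fell and 3 rose, where 26.4% of all genes fell and 29.6% rose, so the share that rose was not above that of all genes. The other 5 were not analysed here.

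The regulators of chromatid separation were among those that fell without replicate 4. Sgo2, the shugoshin that shields REC8 from cleavage at centromeres in meiosis I, was at -2.39, -1.28, -3.99 and -0.13 log2 from the normal obese mean in replicates 1 to 4 (limma adjusted p = 0.00276 without replicate 4). Espl1, which encodes separase, the protease that cuts kleisins, differed by -1.79, -1.23, -2.54 and -0.20 log2. Its inhibitor securin, from Pttg1, differed by -2.29, -0.84, -3.15 and 0.09 log2. Both fell without replicate 4 (limma adjusted p = 0.000466 and 0.00346).

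Meikin, a meiosis-specific kinetochore protein that acts in the protection of REC8, differed by -2.01, -1.06, -1.71 and 0.08 log2 (limma adjusted p = 0.000279 without replicate 4). The acetyltransferase that locks the ring by modifying SMC3, Esco2, differed by -0.96, -1.07, -2.18 and -0.20 log2. Hdac8, which removes that acetyl group, differed in the other direction, by 1.30, 0.77, 1.52 and 0.20 log2. Limma adjusted p without replicate 4 was 0.00235 for Esco2 and 0.000464 for Hdac8, and both kept their direction under each of the 4 other scalings. With arrays centred on Sertoli genes, however, Hdac8 was at 0.04 log2 and no longer called (limma adjusted p = 0.754). Pds5a and Ctcf, the other 2 regulators that rose, turned negative with arrays centred on ribosomal protein or Sertoli genes. Wapl, which releases cohesin from chromatin, Esco1 and the loader subunit Mau2 did not pass. Without replicate 4 and with quantile normalization applied again, however, Wapl rose by 0.29 log2 (limma adjusted p = 0.0331).

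**Figure D4:**
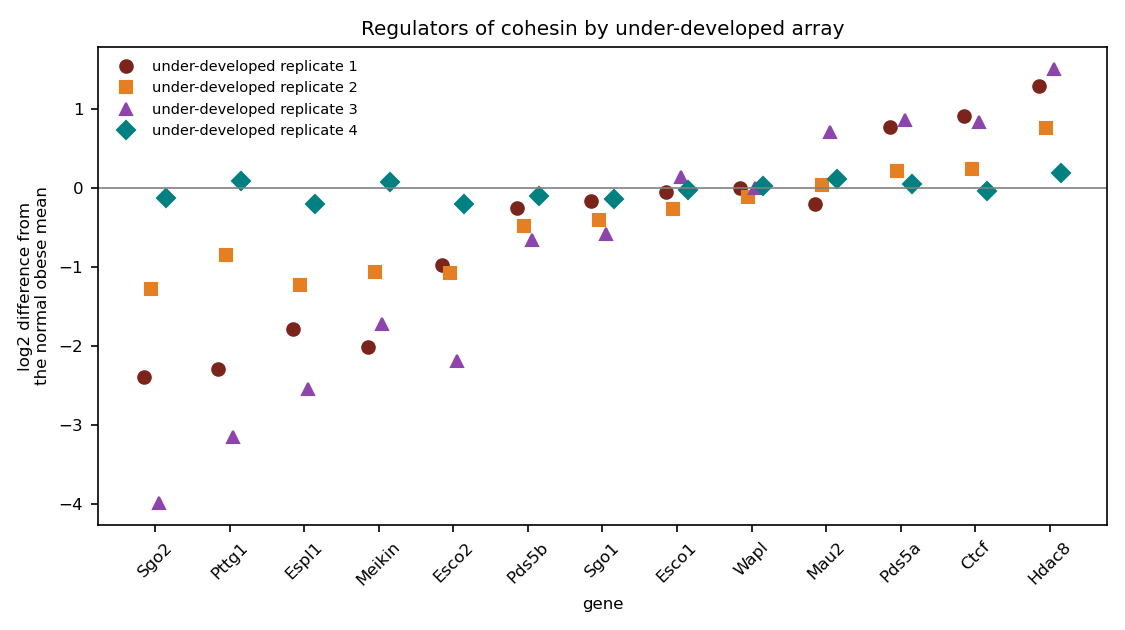
Log2 difference from the normal obese mean (vertical axis) of the 13 measured cohesin regulators in each under-developed array, ordered by the fitted difference. Replicate 4 stays between -0.20 and 0.20 log2, and the differences of replicates 1 to 3 run from -3.99 for Sgo2 to 1.52 for Hdac8.

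The other SMC complexes, condensin and SMC5/6, had a smaller median difference than the meiotic subunits. Of 16 listed genes 14 were measured, with a median difference of -0.47 log2. With all arrays 0 passed limma after adjustment (7 lower and 2 higher at an unadjusted p under 0.05, against 22.3% and 24.4% of all genes). Without replicate 4, 8 fell and 2 rose, against 26.4% and 29.6% of all genes. The 2 were Nsmce4a and Nsmce2, the second turning negative with arrays centred on ribosomal protein or Sertoli genes. Smc4, a core condensin subunit, differed by -1.27, -0.25, -2.29 and 0.01 log2, and Ncapg, a condensin I subunit, by -2.05, -0.68, -3.11 and 0.02. Ncapd2, also of condensin I, differed by -1.30, -1.15, -1.79 and -0.15 log2. Eid3, a testis form of an SMC5/6 subunit, differed by -2.04, -0.65, -4.26 and -0.11 log2, while Nsmce4a, its somatic paralogue, differed by 1.52, 0.99, 1.63 and -0.02. Without replicate 4 Eid3 fell and Nsmce4a rose (limma adjusted p = 0.0168 and 0.000168), and both kept their direction under each of the 4 other scalings. That pair thus had the same signs as Stag3 and Stag2.

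Genes of the chromosome axis and synaptonemal complex, which assemble on meiotic cohesin, were low in the same arrays. Of 12 listed, 10 were measured, with a median difference of -1.71 log2 against -1.63 for the 4 meiotic cohesin genes. All 10 fell without replicate 4, as did 26.4% of all genes, and with all arrays 0 passed limma after adjustment (8 lower at an unadjusted p under 0.05, against 22.3% of all genes). Hormad1, an axis protein, differed by -2.58, -0.62, -4.63 and -0.02 log2, and the transverse filament gene Sycp1 by -2.80, -0.57, -4.19 and -0.01.

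Markers of the cell types of the testis differed in the same arrays. Without replicate 4, 26.4% of all genes fell and 29.6% rose. Spermatocyte genes had a mean level between 6.38 and 9.77 log2 in under-developed testes, against 9.70 to 9.77 in normal obese testes, and 14 of 16 fell without replicate 4. Spermatid genes had a mean level between 7.35 and 11.50, against 11.55 to 11.59, and 15 of 16 fell. Sertoli genes had a mean level between 8.15 and 9.44, against 8.07 to 8.21, and 13 of 19 rose while 1 fell. Spo11, the nuclease that starts meiotic recombination, was at -2.68, -0.95, -3.76 and 0.23 log2 from the normal obese mean in under-developed replicates 1 to 4, and Prm1, a protamine gene, at -2.89, -0.26, -2.72 and -0.04. Sox9, a transcription factor of Sertoli cells, was at 0.24, 0.54, 0.19 and 0.09. It was not among the 13 Sertoli genes that rose (limma adjusted p = 0.082 without replicate 4). Its normal obese mean of 5.88 log2 lay below every array median. No array value is a true zero, so no marker was at 0.

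The mean difference in under-developed replicates 1 to 4 was -2.11, -0.75, -3.36 and 0.04 log2 for spermatocyte genes and -1.72, -0.76, -3.34 and 0.03 for the meiotic cohesin genes. For Sertoli genes it was 1.30, 0.86, 1.32 and 0.02 log2, and for the mitotic cohesin genes 0.94, 0.65, 1.10 and -0.06. Spermatogonial genes differed by -0.17, -0.13, 0.02 and -0.05 log2. Without replicate 4, 5 of 14 of them fell and 3 rose, where 26.4% of all genes fell and 29.6% rose. Leydig genes rose in 7 of 9 and macrophage genes in 11 of 12 cases without replicate 4, with mean levels up to 9.69 log2 each in under-developed testes, against 8.27 and 7.66 at most in normal obese testes. Endothelial genes rose in 6 of 6 and matrix genes in 10 of 10 cases, and of 9 lymphocyte genes 3 rose and 2 fell. Of 15 cell cycle genes 12 fell and 1 rose, and of 56 ribosomal protein genes 45 rose and 3 fell. Without replicate 4 and with arrays centred on Sertoli genes, 2 Leydig genes rose and 2 fell, and 2 endothelial genes rose and 3 fell. Of all 18166 genes, 1250 rose and 15043 fell under that scaling. The part of these cell types in the cohesin differences was not tested.

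**Figure D5:**
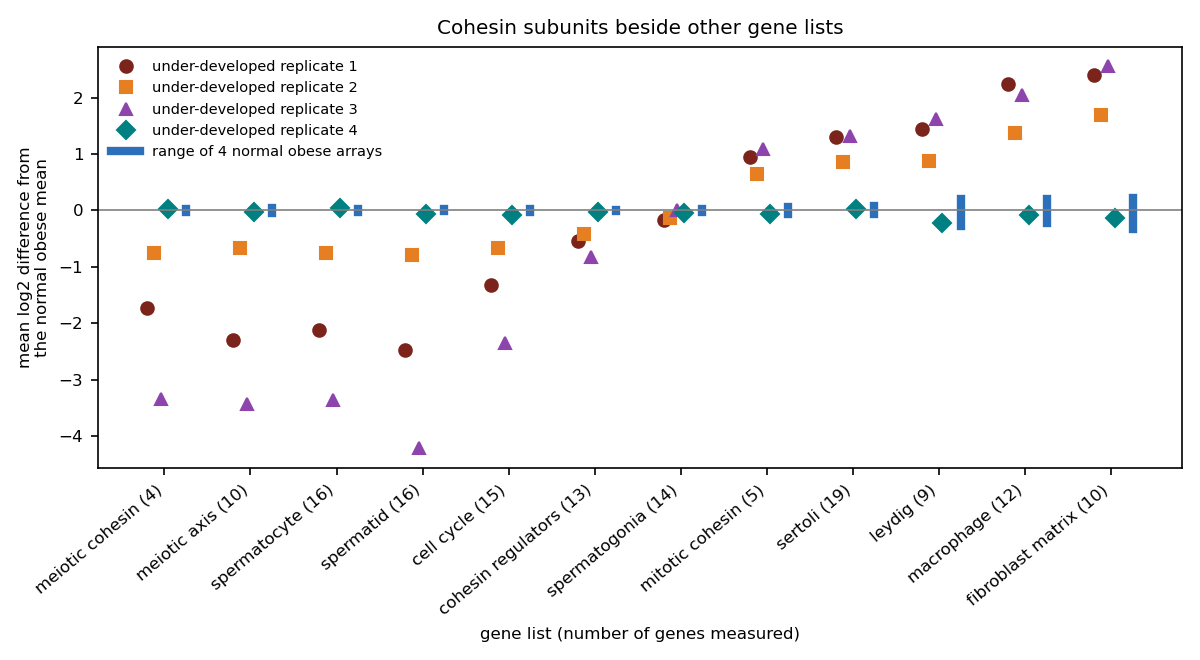
Mean log2 difference from the normal obese mean (vertical axis) of the cohesin subunits and other gene lists (horizontal axis, with the number of genes measured) in each under-developed array, beside the range of the 4 normal obese arrays. The meiotic cohesin genes reach -3.34 in replicate 3, close to the spermatocyte list at -3.36, and the mitotic subunits lie between 0.65 and 1.10 in replicates 1 to 3.

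The genes most like the meiotic subunits were sought by the root mean square difference, over the 10 arrays, between their log2 differences from the normal obese mean. Unnamed loci (such as LOC, RGD and AABR symbols), symbols beginning with Mir or Olr and the subunits themselves were left out of that search. Closest to the mean of the 4 meiotic genes were Cep41 (0.05 log2), Cep19 (0.07), Efhb (0.07), Fam118a (0.08) and Nusap1 (0.08). For Cep41 the 4 under-developed arrays gave -1.78, -0.83, -3.27 and 0.06 log2, against -1.72, -0.76, -3.34 and 0.03 for the meiotic mean. Closest to Smc1b was Ddx4, the germ-cell RNA helicase gene, at 0.06 log2, followed by Lca5l and Fam227b. Stag3 was nearest to Lrrc72, Cimap1c and Potec, Rec8 to Zfp819, Lyzl6 and Zfp52, and Rad21l1 to Thoc1, Chia and Polr3gl. The mean of the 5 mitotic genes, which averages opposite directions, was nearest to Rab11a (0.02 log2).

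For normal testes of obese and lean rats, limma over all arrays called 0 of 9 subunits and 0.0% of all genes. At an unadjusted p under 0.05 it had 0 subunits, against 0.44% of all genes (0.121% higher and 0.319% lower). With so low a share over all genes, the absence of subunits says little. The fitted differences, obese minus lean, ran from -0.05 ± 0.98 log2 (SE) for Smc1b to 0.20 ± 0.61 for Stag2. These errors include the spread of the under-developed arrays. The 95% interval of Stag3 reached from -2.18 to 2.15, so the fit of all arrays could not exclude sizeable changes of the meiotic genes. In a fit of only these groups, which leaves that spread out, 1141 of 18166 genes had an unadjusted p under 0.05. After adjustment that fit called 1 gene, and all 9 subunits stayed uncalled. No subunit separated obese from lean arrays, where 7.7% of all genes lay higher and 7.27% lower without overlap. The difference of Stag2 was the largest of the 9, with 8.27 ± 0.09 log2 in normal obese (SD, n = 4) and 8.07 ± 0.14 in normal lean testes (SD, n = 2). It exceeded both SDs, although the arrays of the groups overlapped.

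The under-developed testes were also set against the normal lean testes, a comparison that shares the under-developed arrays with the first. Limma called 0 of 9 subunits and 0.0% of all genes with all arrays, with the smallest limma adjusted p at 0.154 for Smc1a, Rad21 and Stag2. At an unadjusted p under 0.05 these 3 were higher and Rec8 lower, where 31.8% of all genes passed, 17.5% higher and 14.3% lower. The fitted differences were -1.60 for Smc1b, -1.73 for Rec8, -0.59 for Rad21l1 and -1.90 for Stag3, and 1.08, 1.23 and 1.72 log2 for Smc1a, Rad21 and Stag2. Smc1b, Rec8 and Smc3 lay below the lean arrays without overlap, as did 14.7% of all genes, with 13.7% above. Without under-developed replicate 4, limma called 7 of the 9, with Rec8, Rad21l1, Stag3 and Stag1 lower and Smc1a, Rad21 and Stag2 higher, where 23.2% of all genes were lower and 25.6% higher. Smc1b and Smc3 missed the threshold there (limma adjusted p = 0.0831 and 0.0687).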

How the data were processed

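Total RNA of rat testes was biotin-labelled and hybridised to Affymetrix arrays with the WT PLUS kit, per the labels' protocols. The deposited values are log2 expression per probe set, made by the authors with RMA per the submitters' processing notes; its version, settings and genome build are not given in the sources used here. RMA's normalization sets genes relative to each other. The values ran from 2.28 to 14.0, with array medians from 6.14 to 6.38.

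Of 36685 probe sets, 18511 carried 1 gene symbol, 575 several and 17599 none. Symbols were updated by gene number against RefSeq on GRCr8 (18394 matched). Of several probe sets per gene (291 genes) the brightest was kept, which left 18166 genes. Groups came from the titles. One limma 3.58.1 fit (R 4.3.3, lmFit and eBayes) of all 10 arrays gave 3 comparisons, with Benjamini-Hochberg adjustment over all genes and a threshold of 0.05. It was tested on simulated data in which each gene had the same spread in all groups and few genes changed, unlike these arrays. Python 3.11.15, pandas 2.3.3, numpy 2.4.6 and matplotlib 3.10.9 made summaries and figures. Promoters were read from RefSeq on GRCr8, in which 8 of the 9 subunits had an entry.

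The members and gene lists were chosen with earlier results of these data known. Named were all subunits, genes among the 6 with the largest change in each related list, the first member of some marker lists, members whose scaling turned their sign, and the 5 or 3 genes nearest in pattern. The alternatives were 4 other scalings, an offset of 50, leaving out dim genes under the 25th percentile, the mean of the probe sets of a gene, trend with robust moderation, array weights, a fit of 2 groups, a replicate block and leaving out each array.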

Additional observations from a re-analysis of the deposited data

How the results depend on the processing

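For under-developed against normal obese testes, limma called 0 genes with all arrays but 9862 with array weights and 11833 with arrays centred on the Sertoli list. Leaving out 1 array at a time gave 0 to 10171 genes, and only the fit without under-developed replicate 4 called any. With that array left out and the scaling changed as well, alternatives added after seeing the data, limma called 9901 genes after median centring, 9653 after repeated quantile normalization, 14868 on the ribosomal protein list and 16293 on the Sertoli list. Against normal lean testes the counts were 9620 with array weights, 0 to 8866 leaving out each array, and 8910, 8396, 14806 and 16066 under those 4 scalings without replicate 4. For obese against lean normal testes 1 gene was called with array weights and 1 in the fit of only those groups. Centring on the ribosomal protein or Sertoli list put the median of all genes at -0.45 or -0.81 log2 for under-developed against normal obese testes.

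The meiotic minus mitotic difference lay between -2.83 and -1.33 log2 against normal obese testes, between -2.90 and -1.39 against normal lean testes, and between -0.10 and -0.04 for obese against lean, leaving out each array. Each subunit kept its direction under each alternative in both comparisons of under-developed testes, except Smc3 after repeated quantile normalization (0.10 log2 against normal obese and 0.065 against normal lean testes with all arrays, 0.13 and 0.10 without replicate 4). With array weights 8 of 9 subunits were called against normal obese testes and 7 against normal lean testes. Of all 18166 genes, 9862 and 9620 were called there. With arrays centred on the Sertoli list 6 subunits were called against normal obese testes, 4 meiotic and 2 mitotic, all of them lower. Under that scaling 11350 of all genes were called lower and 483 higher.

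For obese against lean normal testes, where no subunit was called, some differences changed sign. After centring on ribosomal protein genes, with or without replicate 4, Rad21l1, Smc1a and Rad21 were at -0.049, -0.047 and -0.048 log2. Leaving out each array gave -0.042 to 0.025 for Rec8, -0.16 to 0.26 for Rad21l1, -0.058 to 0.0034 for Stag3, -0.032 to 0.0025 for Smc3, -0.014 to 0.12 for Rad21 and -0.054 to 0.052 for Stag1. The replicate number is only a name here, since same-numbered obese pairs correlated at 0.007 to 0.260 and 2 of 8 obese arrays correlated best with their own number. With the replicate block 0 genes were called in each comparison, with 8306, 110 and 5857 at an unadjusted p under 0.05, and Smc1b, Rec8, Rad21l1 and Stag3 were at 0.25, 0.069, -0.025 and 0.069 log2 for obese against lean. The causes were not tested.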
